A study of Mus musculus with 19 samples.

Results

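The effect of the APP-PS1 genotype on hippocampal RNA was taken as the mean of its difference on control chow and its difference on ibuprofen chow. It set 10 arrays from APP-PS1 mice against 9 from wild-type littermates. All 19 arrays of the study entered it, each diet with equal weight, and every one of 19938 genes was represented by the probe set of highest mean among those with its symbol alone. The APP-PS1 mice had the genotype APPSwe-PS1deltaE9 and were measured as 5 arrays on control chow and 5 on chow with ibuprofen at 375 ppm. The wild-type mice were measured as 4 arrays on control chow and 5 on ibuprofen chow. All animals were 6 months old, were of the C57BL/6J strain and had eaten their chow from 3 months of age. The labels call the arrays replicates without saying whether each holds the tissue of 1 animal, and they give no sex, batch or litter of each animal. If some shared an animal, the p-values would measure technical spread in part. Xist, the RNA of the silenced X chromosome, lay between 5.33 and 5.82 over all arrays, and the Y-linked gene Eif2s3y between 9.43 and 11.09.

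Mice of this kind carry transgenes, a mutant amyloid precursor protein among them, that are expressed from the mouse prion protein promoter, mostly in neurons. They lay down amyloid plaques in cortex and hippocampus. Microglia that touch plaques switch on a program of lipid handling, phagocytosis and lysosomal genes that depends on the receptor Trem2 and its adaptor Tyrobp, and astrocytes around plaques raise the filament protein Gfap. Ibuprofen blocks the cyclooxygenases, which make prostaglandins.

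Values are log2 expression levels, so a difference of 1 is a doubling, and differences are APP-PS1 minus wild-type with standard errors (SE) from the limma fit across all genes. Array medians lay between 8.06 and 8.14. APP-PS1 control replicate 1 and wild-type ibuprofen replicates 1 and 5 had a median correlation with the other arrays under 0.99, over all probe sets, and stand apart in what follows. Markers of the pyramidal cells of fields CA1 to CA3 had means of 10.63 to 10.95 per array and those of dentate granule cells 9.39 to 10.22, so hippocampal neurons were measured in every array. Choroid plexus markers, from tissue that lies against the hippocampus, had means of 7.63 to 10.17 per array and were high in some arrays of each genotype.

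In the average, 5 genes passed an adjusted p of 0.05 (0.0251% of genes), of which 4 rose (0.0201%) and 1 fell (0.00502%). Prnp, App, Cst7 and Ccl3 rose and Arpp21 fell. At an unadjusted p under 0.05 the average held 1535 genes (7.7%), 466 of them higher (2.34%) and 1069 lower (5.36%). The lower genes thus outnumbered the higher ones. Without the 3 arrays that stand apart the shares were 5.13% higher and 4.38% lower, and 8 genes rose and 0 fell at the adjusted threshold. With quantile normalization 5 rose and 6 fell, and with median centring 5 rose and 3 fell. The adjusted count was 342 with array weights and 559 with the microglia marker mean as a covariate, and the 5 genes were in both.

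Prnp and App are the genes nearest to the transgenes. Prnp encodes the prion protein, and its promoter drives the transgenes. Prnp stood at 12.75, 12.69, 12.71 and 12.68 in wild-type mice on control chow and at 13.31, 13.39, 13.37, 13.37 and 13.44 in APP-PS1 mice on it. On ibuprofen chow it stood at 12.79, 12.67, 12.83, 12.70 and 12.70 in wild-type and at 13.44, 13.36, 13.37, 13.42 and 13.43 in APP-PS1 mice. No APP-PS1 array reached down to a wild-type one on either diet. The Prnp rise was 0.67 ± 0.02 (SE), 1.59-fold, with adjusted p = 3.37e-14 in limma, and it was 0.67 on each diet. App, the precursor of the amyloid peptide, lay between 13.16 and 13.40 in the 9 wild-type arrays, with a median of 13.22, and between 13.55 and 13.64 in the 10 APP-PS1 arrays, with a median of 13.60. Its rise was 0.37 ± 0.03 (SE), 1.29-fold, with limma adjusted p = 1e-08. Whether the signals of these probe sets come from the transgenes or from the mouse genes was not tested. Slc23a2 and Rassf2, which lie near Prnp in the genome, gave 0.04 ± 0.04 (SE) and -0.10 ± 0.05 (SE), both without a call.

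Cst7 encodes cystatin F, an inhibitor of lysosomal cysteine proteases that microglia make around plaques. Cst7 stood at 7.05, 6.98, 7.14 and 7.11 in wild-type control mice and at 8.01, 7.90, 7.46, 7.44 and 7.87 in APP-PS1 control mice. With ibuprofen in the chow it stood at 7.01, 7.05, 6.99, 7.27 and 7.06 in wild-type and at 8.27, 7.80, 7.84, 7.69 and 8.13 in APP-PS1 mice. The lowest APP-PS1 array, at 7.44, lay above the highest wild-type array, at 7.27. The Cst7 rise was 0.77 ± 0.08 (SE), 1.7-fold, with adjusted p = 4.2e-05 in limma. It was 0.66 ± 0.12 (SE) on control and 0.87 ± 0.11 (SE) on ibuprofen chow, and the test of their difference gave 0.21 ± 0.17 (SE) with unadjusted p = 0.229. Only Prnp, App and Cst7 had all 10 APP-PS1 arrays above all 9 wild-type arrays (0.015% of genes), and no gene had them all below. In bulk tissue, more cells of a type and more RNA per cell cannot be told apart, here and in all that follows.

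Ccl3, a chemokine of activated microglia, overlapped between the genotypes on ibuprofen chow. Its values were 7.59, 7.28, 7.47 and 7.27 in wild-type control and 8.46, 8.32, 8.31, 7.96 and 8.14 in APP-PS1 control mice. On ibuprofen chow they were 8.34, 7.58, 7.21, 7.49 and 7.98 in wild-type and 8.57, 8.17, 8.17, 8.12 and 8.50 in APP-PS1 mice. The 2 high wild-type values belonged to replicates 1 and 5, which are among the arrays that stand apart. The Ccl3 rise was 0.71 ± 0.11 (SE), 1.64-fold, with limma adjusted p = 0.0137, and 0.83 ± 0.08 (SE) with adjusted p = 6.72e-05 without those 3 arrays. The call ended without wild-type control replicate 4 (adjusted p = 0.0629) and with all probe sets adjusted together (adjusted p = 0.0703). It also ended with the dentate granule marker mean as a covariate (0.68 ± 0.15, SE, adjusted p = 0.75). Ccl4, a close relative of Ccl3, gave -0.01 ± 0.08 (SE), with both genotypes at a median of 7.07.

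The promoters of these microglial genes are shown because Cst7 and Ccl3 rose and the receptor gene Clec7a was higher on both diets at an unadjusted p under 0.05. Each line gives the 250 bases before the transcription start, from RefSeq on GRCm38.p6. Capitals mark GAGGAA on either strand, a form of the sites bound by PU.1, the factor that sets microglial identity.
Cst7, chr2:150570165-150570414, plus strand: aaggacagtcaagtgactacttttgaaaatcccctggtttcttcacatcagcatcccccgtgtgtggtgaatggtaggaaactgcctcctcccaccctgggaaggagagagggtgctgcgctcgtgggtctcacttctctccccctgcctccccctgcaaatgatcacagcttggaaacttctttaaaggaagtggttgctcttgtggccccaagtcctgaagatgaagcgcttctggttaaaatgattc
Ccl3, chr11:83649379-83649628, minus strand: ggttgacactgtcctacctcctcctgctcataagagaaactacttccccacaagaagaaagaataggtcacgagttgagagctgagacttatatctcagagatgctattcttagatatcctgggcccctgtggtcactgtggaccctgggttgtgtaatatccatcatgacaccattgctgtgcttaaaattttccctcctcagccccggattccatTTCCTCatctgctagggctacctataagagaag
Clec7a, chr6:129472780-129473029, minus strand: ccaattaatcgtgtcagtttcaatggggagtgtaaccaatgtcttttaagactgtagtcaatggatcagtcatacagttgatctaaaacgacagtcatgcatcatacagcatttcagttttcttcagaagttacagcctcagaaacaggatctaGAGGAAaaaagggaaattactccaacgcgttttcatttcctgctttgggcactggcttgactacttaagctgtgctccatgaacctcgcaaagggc
The Cst7 window held no GAGGAA, and those of Ccl3 and Clec7a held 1 each. Other forms of the site were not searched for. GAGGAA was found in 8 of the 27 genes of the plaque-associated list that had a window (29.6%), beside 25.9% of all 27025 genes with one. It was found in 6 of 9 general microglia and macrophage markers (66.7%). These are matches of letters, not measured sites.

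Arpp21, a phosphoprotein of neurons regulated by cyclic AMP that binds RNA and calmodulin, was the gene that fell. Its values were 11.40, 11.23, 11.41 and 11.32 in wild-type control and 10.99, 11.13, 10.95, 10.98 and 10.98 in APP-PS1 control mice. On ibuprofen chow they were 11.26, 11.29, 11.27, 11.16 and 11.19 in wild-type and, in APP-PS1 mice, 11.20 and 11.24 in 2 arrays and 11.10 or less in the other 3. The genotypes were apart on control chow, as for 586 genes that were higher (2.94%) and 180 that were lower (0.903%), and overlapped on ibuprofen chow. Over both diets, 8 of the 10 APP-PS1 arrays were under the whole wild-type range. Arpp21 was picked by p in the same arrays, so that count follows in part from the choice. The share of all genes with such a count was not counted. Arpp21 fell by 0.23 ± 0.04 (SE), with limma adjusted p = 0.0345. The difference was -0.34 ± 0.06 (SE) on control and -0.12 ± 0.05 (SE) on ibuprofen chow, and they differed by 0.21 ± 0.08 (SE) with unadjusted p = 0.0138. Leaving out 1 array ended the call in 12 of 19 cases, with adjusted p from 0.0637 to 0.117 in those cases, although the difference stayed between -0.25 and -0.21 over all 19.

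The Arpp21 gene lies on chromosome 9 and holds the microRNA gene Mir128-2 in an intron. Of the 20 measured genes next to it, 10 on each side in RefSeq order, none had an unadjusted p under 0.05 in limma (7.7% of all genes did). Mir128-2 gave -0.03 ± 0.06 (SE). Mir128-1, on chromosome 1, makes the same mature RNA and gave -0.22 ± 0.09 (SE), unadjusted p = 0.0165 and adjusted p = 0.567. That average was made of 0.02 on control and -0.46 on ibuprofen chow. The interaction was -0.48 ± 0.17 (SE) with unadjusted p = 0.0106 in limma. The mature sequence is shown because both loci share it, with the seed, bases 2 to 8, in capitals, from RefSeq on GRCm38.p6.
mmu-miR-128-3p, chr9:112118644-112118664, minus strand, and chr1:128202404-128202424, plus strand: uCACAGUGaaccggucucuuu
The array probes of these loci were not shown to read the mature RNA, so the values describe the probe sets.

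**Figure D1:**
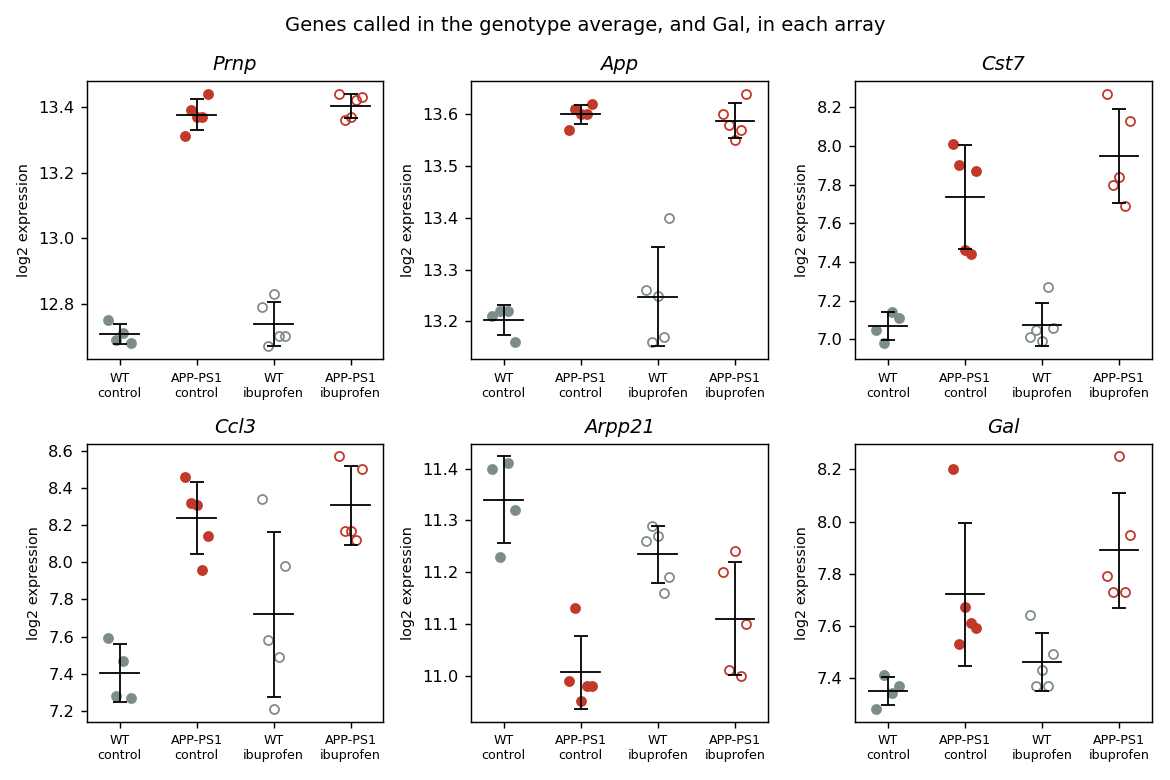
Log2 expression of Prnp, App, Cst7, Ccl3, Arpp21 and Gal (vertical axes) in each array of the 4 groups (horizontal axes), with filled points for control chow, open points for ibuprofen chow, grey for wild-type and red for APP-PS1, and black lines for the mean and standard deviation. All APP-PS1 arrays lie above all wild-type arrays for Prnp, App and Cst7, and Gal is separate within each diet.

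Gal, the gene of the neuropeptide galanin, was the other gene whose genotypes were separate within both diets (4 such genes in all, 0.0201%, all higher). Gal stood at 7.28, 7.41, 7.34 and 7.37 in wild-type control and 8.20, 7.53, 7.67, 7.61 and 7.59 in APP-PS1 control mice. On ibuprofen chow it stood at 7.64, 7.37, 7.43, 7.37 and 7.49 in wild-type and 7.79, 7.73, 8.25, 7.73 and 7.95 in APP-PS1 mice. The separation on control chow rested on a gap between 7.41 and 7.53, and 1 array of each APP-PS1 group stood near 8.2. The difference was 0.40 ± 0.08 (SE), 0.37 on control and 0.43 on ibuprofen chow, and its limma adjusted p of 0.124 missed the threshold. Without the 3 arrays that stand apart it was 0.37 ± 0.06 (SE) with adjusted p = 0.0429.

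Among the other higher genes next in order of p, none passed the adjusted threshold. Rassf8, of a family of Ras-binding proteins, gave 0.24 ± 0.05 (SE, adjusted p = 0.124), with 0.28 on control and 0.21 on ibuprofen chow. Without the 3 arrays it was 0.27 ± 0.04 (SE, adjusted p = 0.0166). Olfml3, a secreted glycoprotein of microglia, gave 0.28 ± 0.06 (SE, adjusted p = 0.159). Gpr50, an orphan receptor related to the melatonin receptors, gave 0.26 ± 0.06 (SE), with 8 of 10 APP-PS1 arrays above every wild-type array. The same count held for Asah1, the lysosomal acid ceramidase, at 0.25 ± 0.06 (SE), and for Idh1, the cytosolic isocitrate dehydrogenase, at 0.27 ± 0.07 (SE). The genes were picked by p in the same arrays, so such counts follow in part from that choice. Their share over all genes was not counted. Ly86, a partner of a Toll-like receptor relative on myeloid cells, gave 0.27 ± 0.07 (SE). Penk, the enkephalin precursor, differed from these. It lay between 11.16 and 11.69 in all wild-type and APP-PS1 control arrays and between 11.77 and 12.57 in the 5 APP-PS1 ibuprofen arrays. Its average of 0.40 ± 0.09 (SE) was therefore made of 0.02 on control and 0.78 on ibuprofen chow, and the interaction was 0.76 ± 0.19 (SE) with unadjusted p = 0.000563.

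Genes of plaque-associated microglia lay mostly above 0. Of 38 listed, 36 were measured; 28 lay above 0 (45.1% of all genes did) and 15 did so with an unadjusted p under 0.05, beside 2.34% of all genes, while 0 lay below 0 at that threshold. Cst7 and Ccl3 were called. The median was 0.12, beside -0.01 over all genes. The list is a published kind of signature, chosen with results of these arrays known, so its direction is no independent evidence. Lyz2, lysozyme of myeloid cells, whose signal may be shared with its close copy Lyz1, gave 0.45 ± 0.12 (SE), Cd68, a lysosomal membrane protein of phagocytes, 0.29 ± 0.08 (SE), and Cd63, a tetraspanin of late endosomes, 0.27 ± 0.08 (SE). Clec7a, the receptor dectin-1, lay between 6.32 and 6.65 in wild-type and between 6.56 and 6.96 in APP-PS1 arrays, a difference of 0.22 ± 0.05 (SE, adjusted p = 0.232). Tyrobp gave 0.19 ± 0.07 (SE), Trem2 0.13 ± 0.05 (SE) and Itgax, an integrin of these cells, 0.17 ± 0.09 (SE). Other members of the signature gave values near 0. Apoe, the main lipid carrier of the brain, gave -0.03 ± 0.03 (SE), Lpl, lipoprotein lipase, -0.02 ± 0.08 (SE), and Igf1 and the lectin Lgals3 -0.00 ± 0.06 (SE) and 0.04 ± 0.07 (SE). B2m, the light chain of class I molecules, gave 0.38 ± 0.18 (SE), made of 0.05 on control and 0.71 on ibuprofen chow, with 1 wild-type array at 10.24 beside a wild-type median of 12.14. Without that array, wild-type ibuprofen replicate 5, B2m gave 0.19, and with the dentate granule marker mean as a covariate 0.03.

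Per array, the mean over the plaque-associated list was 9.57, 9.66, 9.57 and 9.56 in wild-type control and 9.74, 9.72, 9.68, 9.75 and 9.78 in APP-PS1 control mice. With ibuprofen in the chow it was 9.74, 9.56, 9.49, 9.59 and 9.73 in wild-type and 9.83, 9.71, 9.78, 9.73 and 9.92 in APP-PS1 mice. The genotypes were separate on control chow, and on ibuprofen chow the 2 wild-type arrays at 9.74 and 9.73, replicates 1 and 5, lay among the APP-PS1 arrays. Those arrays also had the highest means of general microglia and macrophage markers in wild-type mice, 9.58 and 9.49 beside 9.18 to 9.28 in the other 7. Without the 3 arrays that stand apart, 23 of 36 members lay above 0 at an unadjusted p under 0.05, beside 5.13% of all genes. With the general microglia marker mean as a covariate, Cst7 gave 0.71 ± 0.09 (SE, adjusted p = 0.000301) and Ccl3 0.52 ± 0.07 (SE, adjusted p = 0.000713). Under it 11 members lay above 0 at an unadjusted p under 0.05 in limma. In that fit 5595 of all 19938 genes passed this threshold in either direction, so the shares given before do not apply to the 11.

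**Figure D2:**
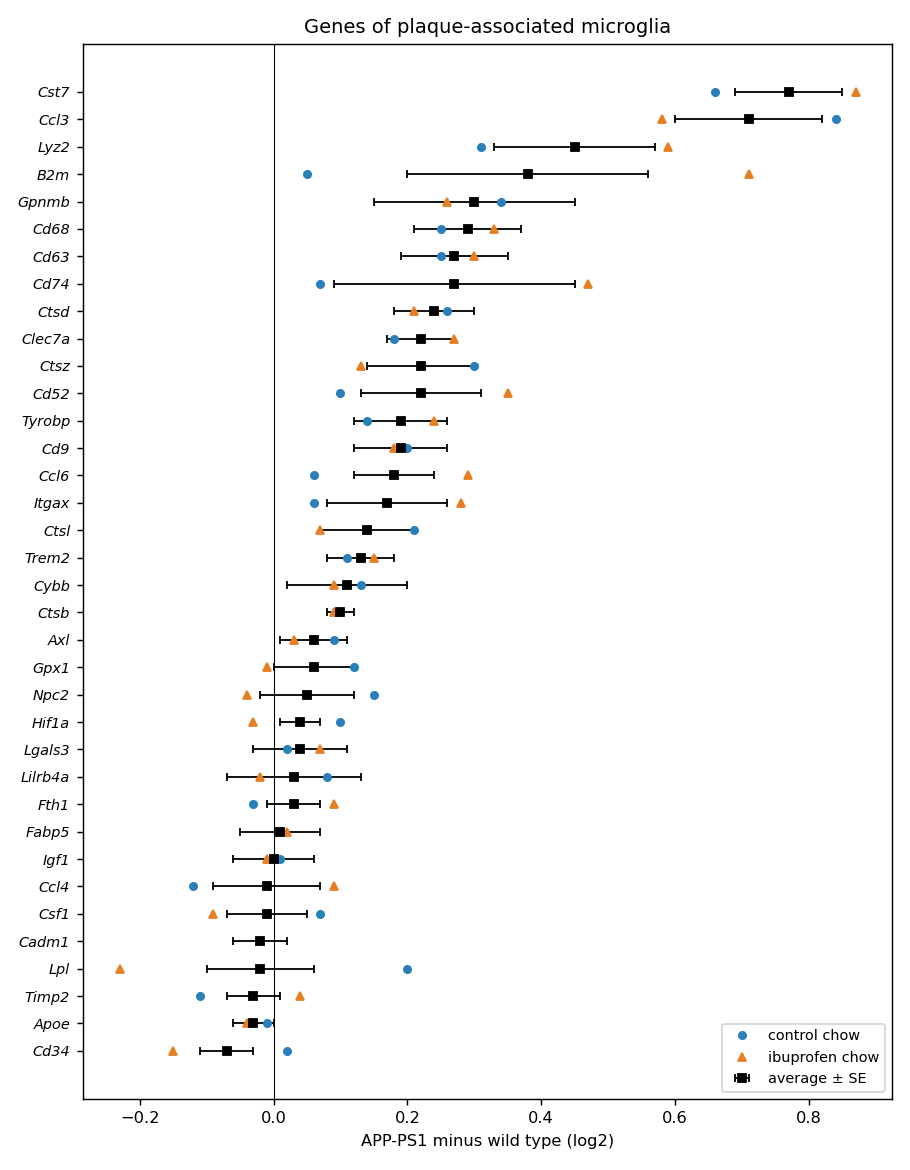
APP-PS1 minus wild-type difference in log2 expression (horizontal axis) of the 36 measured genes of plaque-associated microglia (vertical axis), with black squares and bars for the average and its standard error, blue points for control chow and orange triangles for ibuprofen chow. Cst7 and Ccl3 lie farthest to the right, and Cd34, at -0.07, farthest to the left.

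The general and homeostatic microglial lists had lower medians than the plaque-associated list. Of all genes 45.1% lay above 0 and 2.34% did so at an unadjusted p under 0.05, the shares to set beside each count of this paragraph. Of 13 general markers, 11 lay above 0 with a median of 0.09, and 6 did so at an unadjusted p under 0.05. They included Laptm5, a lysosomal protein of blood-derived cells, at 0.17 ± 0.05 (SE), the protease Ctss at 0.19 ± 0.07 (SE) and the adaptor Fcer1g at 0.15 ± 0.06 (SE). Aif1, Itgam and Spi1, the gene of PU.1, gave 0.01 ± 0.07 (SE), 0.01 ± 0.07 (SE) and -0.04 ± 0.06 (SE). Of 17 homeostatic genes, 3 passed that threshold, Olfml3, Csf1r at 0.13 ± 0.04 (SE) and Sparc at 0.09 ± 0.03 (SE), and the median was 0.04. P2ry12 and Tmem119, which define resting microglia, gave -0.01 ± 0.05 (SE) and 0.05 ± 0.06 (SE). Csf1r and Tyrobp each stand in more than 1 of these lists. Among complement genes and receptors for antibody tails, 16 of 17 lay above 0 with a median of 0.13, and 6 passed the unadjusted threshold. C3ar1, the receptor of a C3 fragment, gave 0.30 ± 0.09 (SE) on average and on each diet, the inhibitory receptor Fcgr2b 0.26 ± 0.07 (SE), and C1qa and C1qb 0.13 ± 0.06 (SE) and 0.14 ± 0.06 (SE). C4b gave 0.36 ± 0.12 (SE), and its signal may be shared with its near-identical neighbour C4a. In cytokines and chemokines other than Ccl3 and Ccl4, 0 of 20 lay above 0 at that threshold in limma, which is near the share over all genes. Tnf gave 0.09 ± 0.06 (SE), Il1b 0.00 ± 0.06 (SE) and Il6 0.07 ± 0.04 (SE). Cx3cl1, the neuronal chemokine fractalkine, gave -0.13 ± 0.04 (SE).

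Lysosomal genes lay above 0 in 29 of 32 cases, with a median of 0.06. At an unadjusted p under 0.05 there were 10 above and 0 below, beside 2.34% and 5.36% of all genes. Without the 3 arrays that stand apart 19 lay above, where the share of all genes was also larger, as given earlier. Ctsd, the main aspartic protease of the lysosome, lay between 11.96 and 12.48 in wild-type and between 12.25 and 12.75 in APP-PS1 arrays, so the genotypes overlapped. Its difference was 0.24 ± 0.06 (SE), 0.26 on control and 0.21 on ibuprofen chow. Ctsb, a cysteine protease, gave 0.10 ± 0.02 (SE), Ctsh 0.33 ± 0.09 (SE), Ctsc 0.28 ± 0.11 (SE) and the membrane protein Lamp2 0.18 ± 0.06 (SE). Values for other members varied. Hexa and Glb1, which break down gangliosides, gave 0.00 ± 0.06 (SE) and 0.01 ± 0.06 (SE), and Grn, progranulin, gave 0.12 ± 0.05 (SE). The list median was 0.14 on control and 0.01 on ibuprofen chow.

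The promoter of Ctsd is shown because lysosomal genes share CACGTG, the palindrome at the centre of the motif read by the factor Tfeb. Capitals mark it.
Ctsd, chr7:142387828-142388077, minus strand: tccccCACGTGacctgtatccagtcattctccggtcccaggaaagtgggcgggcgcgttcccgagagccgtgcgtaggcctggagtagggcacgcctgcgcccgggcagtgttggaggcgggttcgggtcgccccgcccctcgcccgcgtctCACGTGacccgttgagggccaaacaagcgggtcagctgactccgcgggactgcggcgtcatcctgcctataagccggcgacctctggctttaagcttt
The Ctsd window held 2 matches. CACGTG was in 10 of 28 lysosomal genes with a window (35.7%), beside 6.86% of all genes, and in 3 of 27 genes of the plaque-associated list (11.1%). It was in 0 of 9 general microglia markers and 0 of 15 dentate granule genes. Ctsd stands in both of the first lists. A match says nothing of binding in these mice.

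Reactive astrocyte genes lay above 0 in 21 of 24 cases, with a median of 0.12, and 6 did so at an unadjusted p under 0.05. Of all genes 45.1% lay above 0 and 2.34% did so at that threshold. Gfap stood at 11.37, 11.53, 11.16 and 11.43 in wild-type control and 12.32, 11.85, 11.62, 11.53 and 11.62 in APP-PS1 control mice. On ibuprofen chow it stood at 11.77, 11.50, 11.41, 11.47 and 11.54 in wild-type and 11.87, 11.73, 12.39, 11.82 and 12.70 in APP-PS1 mice. Each APP-PS1 group held arrays above every wild-type array, and the lowest ones lay within the wild-type range. The Gfap difference was 0.49 ± 0.11 (SE) with limma adjusted p = 0.211. Serpina3n, a protease inhibitor of reactive astrocytes, gave 0.35 ± 0.10 (SE), Vim, another filament protein, 0.29 ± 0.10 (SE), and Aqp4, the water channel of astrocyte endfeet, 0.26 ± 0.07 (SE). Lcn2, high in astrocytes after systemic inflammation, gave -0.19 ± 0.27 (SE). General astrocyte markers had a median of -0.02, with 6 of 16 above 0.

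Genes that make or clear amyloid gave small differences apart from App and Prnp, which stand in that list. Of 23 measured, 10 lay above 0, beside 45.1% of all genes, with a median of -0.01. Psenen, a small subunit of gamma-secretase, gave 0.10 ± 0.03 (SE, unadjusted p = 0.00142), with 0.10 on control and 0.11 on ibuprofen chow. Bace1, the beta-secretase, gave -0.11 ± 0.05 (SE). The other subunits and relatives Ncstn, Aph1a, Aph1b and Psen2 lay between -0.02 and 0.04, and the degrading enzymes Mme and Ide gave -0.06 ± 0.07 (SE) and 0.03 ± 0.04 (SE). Aplp1 and Aplp2, relatives of App, gave 0.05 ± 0.04 (SE) and 0.04 ± 0.03 (SE).

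The lower genes of smallest p included several that neurons use, and their differences were mostly larger on ibuprofen chow. Adcy1, a calcium-stimulated adenylyl cyclase of hippocampal neurons, stood at 12.15, 12.24, 12.31 and 12.14 in wild-type control and 11.89, 11.93, 12.19, 12.05 and 12.12 in APP-PS1 control mice. With ibuprofen in the chow it stood at 11.96, 12.21, 12.18, 12.19 and 12.39 in wild-type and 11.64, 12.03, 11.77, 11.64 and 11.68 in APP-PS1 mice. The APP-PS1 control arrays overlapped the wild-type ones, and 4 of 5 APP-PS1 ibuprofen arrays were under the whole wild-type range. Adcy1 gave -0.31 ± 0.06 (SE), adjusted p = 0.0568, and with the dentate granule marker mean as a covariate -0.15 ± 0.06 (SE). Rtl3 descends from a retrotransposon, and its difference of -0.74 ± 0.14 (SE), adjusted p = 0.0563, was made of -0.28 and -1.21. Shisa7, which sits beside receptors at synapses, gave -0.21 ± 0.04 (SE), with -0.14 on control and -0.28 on ibuprofen chow, and 8 of 10 APP-PS1 arrays were under the whole wild-type range. Fat4, a giant cadherin, gave -0.38 ± 0.08 (SE), and Ptchd4, a patched-related membrane protein, -0.29 ± 0.05 (SE). For both of these 9 of 10 APP-PS1 arrays were under the whole wild-type range. The genes of this paragraph were picked by p or size in the same arrays, so such counts follow in part from that choice. Their share over all genes was not counted. Kcnq3, a potassium channel subunit that damps firing, gave -0.18 ± 0.04 (SE), Camkk2, a kinase switched on by calcium, -0.25 ± 0.06 (SE), and Rasgrf1, a calcium-dependent activator of Ras, -0.13 ± 0.03 (SE). None of these passed the adjusted threshold in limma over all arrays. With the dentate granule marker mean as a covariate, Rtl3 gave -0.29, Fat4 -0.11, Ptchd4 -0.19, Camkk2 -0.11, Kcnq3 -0.11 and Shisa7 -0.19. Mkx, Flt3, Klhl34, Snord49b, Etnppl and Gmnc also met the naming rule by p or size, lay below 0 and were not called. Over the omissions of 1 array, Mkx ranged from -0.39 to -0.31, Flt3 from -0.25 to -0.21 and Klhl34 from -0.4 to -0.3. Likewise Snord49b ranged from -0.39 to -0.3, Etnppl from -0.48 to -0.35 and Gmnc from -0.59 to -0.38.

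Genes that mark dentate granule cells, the neurons at the hippocampal entrance, lay below 0 in 14 of 16 cases. The median was -0.14, made of -0.02 on control and -0.26 on ibuprofen chow, and 8 lay below 0 at an unadjusted p under 0.05 (5.36% of all genes did). Dsp, a desmosome protein, stood at 9.37, 9.85, 9.55 and 9.60 in wild-type control and 9.32, 8.94, 9.77, 9.83 and 9.74 in APP-PS1 control mice. On ibuprofen chow it stood at 9.41, 9.75, 9.99, 9.79 and 10.40 in wild-type and 8.35, 9.31, 8.35, 8.46 and 8.45 in APP-PS1 mice. The genotypes were apart on ibuprofen chow and overlapped on control chow. On ibuprofen chow 411 genes were apart and lower (2.06%) and 46 apart and higher (0.231%), whatever their values on control chow. The average of -0.68 ± 0.14 (SE) joined -0.08 and -1.29, and the interaction was -1.21 ± 0.28 (SE) with unadjusted p = 0.000285. Tdo2, the first enzyme of tryptophan breakdown, gave -0.82 ± 0.20 (SE), made of -0.17 and -1.46. It gave -0.18 with the mean of the list as a covariate, but Tdo2 is part of that mean, so some shrinkage was built in. Prox1, the factor that keeps granule cells what they are, gave -0.24 ± 0.06 (SE), made of -0.01 and -0.46, and Calb1, calbindin, gave -0.19 ± 0.07 (SE), made of -0.10 and -0.29. Per array, the list mean was 9.81 to 10.22 in wild-type mice, 9.70 to 9.95 in APP-PS1 control mice and 9.50, 9.85, 9.39, 9.58 and 9.62 in APP-PS1 ibuprofen mice. It was highest in wild-type ibuprofen replicate 5, without which the median was -0.10. Without the 3 arrays that stand apart, 9 lay below 0 and 1 above 0 at that threshold.

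**Figure D3:**
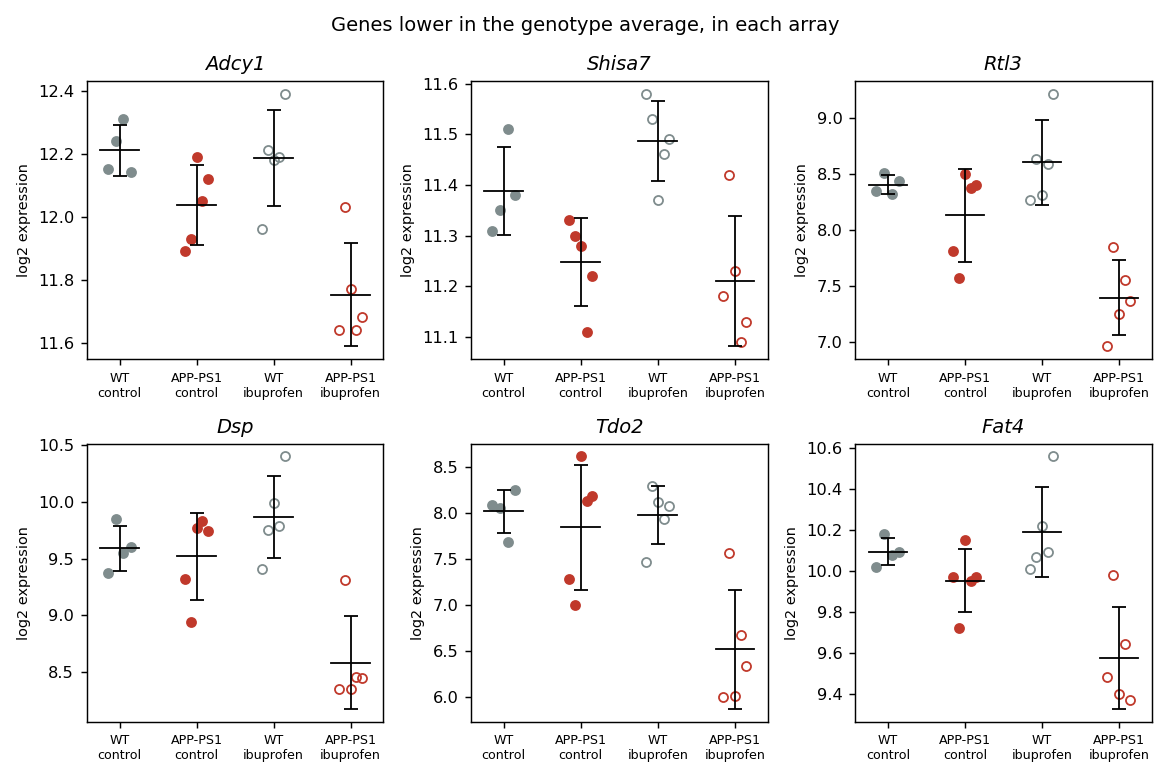
Log2 expression of Adcy1, Shisa7, Rtl3, Dsp, Tdo2 and Fat4 (vertical axes) in each array of the 4 groups (horizontal axes), with filled points for control chow, open points for ibuprofen chow, grey for wild-type and red for APP-PS1, and black lines for the mean and standard deviation. For Dsp the 5 APP-PS1 ibuprofen arrays, at 8.35 to 9.31, lie below the wild-type arrays, while the APP-PS1 control arrays overlap them.

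Other neuronal lists had medians slightly below 0. Immediate early genes, induced within minutes by neuronal firing, lay below 0 in 22 of 25 cases with a median of -0.06, and 7 did so at an unadjusted p under 0.05. Of all genes 45.1% lay above 0, and 5.36% lay below 0 at that threshold. These shares belong beside each count of this paragraph over all arrays without a covariate. Nr4a3 gave -0.23 ± 0.06 (SE), Nr4a1 -0.20 ± 0.07 (SE), Npas4 -0.30 ± 0.12 (SE) and Egr1 -0.19 ± 0.08 (SE). All 4 had the same sign on both diets, for Nr4a3 -0.15 and -0.30 and for Egr1 -0.21 and -0.18. The count was 3 without wild-type control replicate 2 or 3, each omitted alone, and 3 without the 3 arrays that stand apart. Among genes of cyclic AMP and calcium signalling, 6 of 23 lay below 0 at that threshold and 0 above, with a median of -0.04. They were Arpp21, Adcy1, the kinase Camk4 at -0.09 ± 0.03 (SE), the phosphodiesterases Pde4d at -0.13 ± 0.05 (SE) and Pde10a at -0.11 ± 0.05 (SE), and Adcy9 at -0.11 ± 0.05 (SE). Of 16 interneuron genes, 14 lay below 0 and 4 did so at that threshold, namely the peptide genes Sst at -0.17 ± 0.04 (SE), Cck at -0.09 ± 0.03 (SE) and Vip at -0.23 ± 0.09 (SE), and the receptor Erbb4 at -0.14 ± 0.04 (SE). Gad2, an enzyme that makes GABA, gave 0.09 ± 0.06 (SE). In the postsynaptic list 19 of 22 lay below 0 and 3 did so at that threshold, the scaffold genes Dlgap1 and Shank2 at -0.11 ± 0.03 (SE) and -0.20 ± 0.06 (SE) and the kainate receptor Grik3 at -0.19 ± 0.08 (SE). With the dentate granule marker mean as a covariate, 0 immediate early, 2 cyclic AMP and calcium and 3 interneuron genes lay below 0 at that threshold, beside 0.913% of all genes. Presynaptic and respiratory chain genes each had a median of -0.01.

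Clock genes gave a median of -0.08, with 5 of 15 below 0 and 1 above at an unadjusted p under 0.05. Of all genes 5.36% lay below 0 and 2.34% above 0 at that threshold, the shares to set beside each count of this paragraph over all arrays. They do not apply to the counts with 1 array omitted. In such fits 1002 to 2340 of all 19938 genes passed that threshold in limma, in either direction. Per1 gave -0.16 ± 0.07 (SE), Cry2 -0.15 ± 0.05 (SE) and Arntl, which acts against them, -0.11 ± 0.04 (SE), so activators and repressors of the clock both lay below 0. The clock median was -0.01 on control and -0.16 on ibuprofen chow. Genes driven by glucocorticoids had medians of 0.00 and -0.16, with Zbtb16 at -0.20 ± 0.06 (SE). Cholesterol synthesis genes had medians of 0.22 on control and 0.01 on ibuprofen chow. In the average, 5 of 19 lay above 0 at that threshold, among them Fdft1, squalene synthase, at 0.17 ± 0.06 (SE) and Idi1 at 0.25 ± 0.09 (SE). The count was 3 without any of APP-PS1 control replicate 1, APP-PS1 ibuprofen replicates 3 and 5 and wild-type control replicate 4, each omitted alone. It was 8 without APP-PS1 ibuprofen replicate 1 and 11 without wild-type ibuprofen replicate 5. Oligodendrocyte genes likewise had 0.16 on control and -0.03 on ibuprofen chow, with 10 of 13 above 0 in the average and 4 at that threshold, Tspan2 at 0.19 ± 0.07 (SE) among them. That count was 1 or 2 in 11 of the 19 omissions of 1 array, 6 without APP-PS1 ibuprofen replicate 3 and 7 without APP-PS1 ibuprofen replicate 4. Of 23 chaperones and related genes, 13 lay above 0 and 3 did so at that threshold, Hsph1 at 0.15 ± 0.04 (SE), Hsp90aa1 at 0.09 ± 0.03 (SE) and Hsp90b1 at 0.13 ± 0.05 (SE). In the prostaglandin list 16 of 24 lay above 0 and 1 did so at that threshold, Hpgd, which inactivates prostaglandins, at 0.21 ± 0.06 (SE), and Ptgs2, the inducible cyclooxygenase, gave 0.13 ± 0.08 (SE).

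Interferon and antigen presentation genes lay above 0 with wide errors. Of 21 interferon-induced genes 19 lay above 0, with a median of 0.14, but 2 did so at an unadjusted p under 0.05, Ifi27 at 0.22 ± 0.10 (SE) and Ifi35 at 0.16 ± 0.07 (SE). Of all genes 45.1% lay above 0 and 2.34% did so at that threshold. The list mean was 9.19 in APP-PS1 control replicate 5, beside 7.97 to 8.63 in wild-type arrays, and without that array the median was 0.05. All 15 antigen presentation genes lay above 0, with a median of 0.09, and 1, B2m, passed that threshold, with the dependence on 1 array given above. Cd74 and H2-Ab1, of the class II pathway, gave 0.27 ± 0.18 (SE) and 0.35 ± 0.17 (SE).

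**Figure D4:**
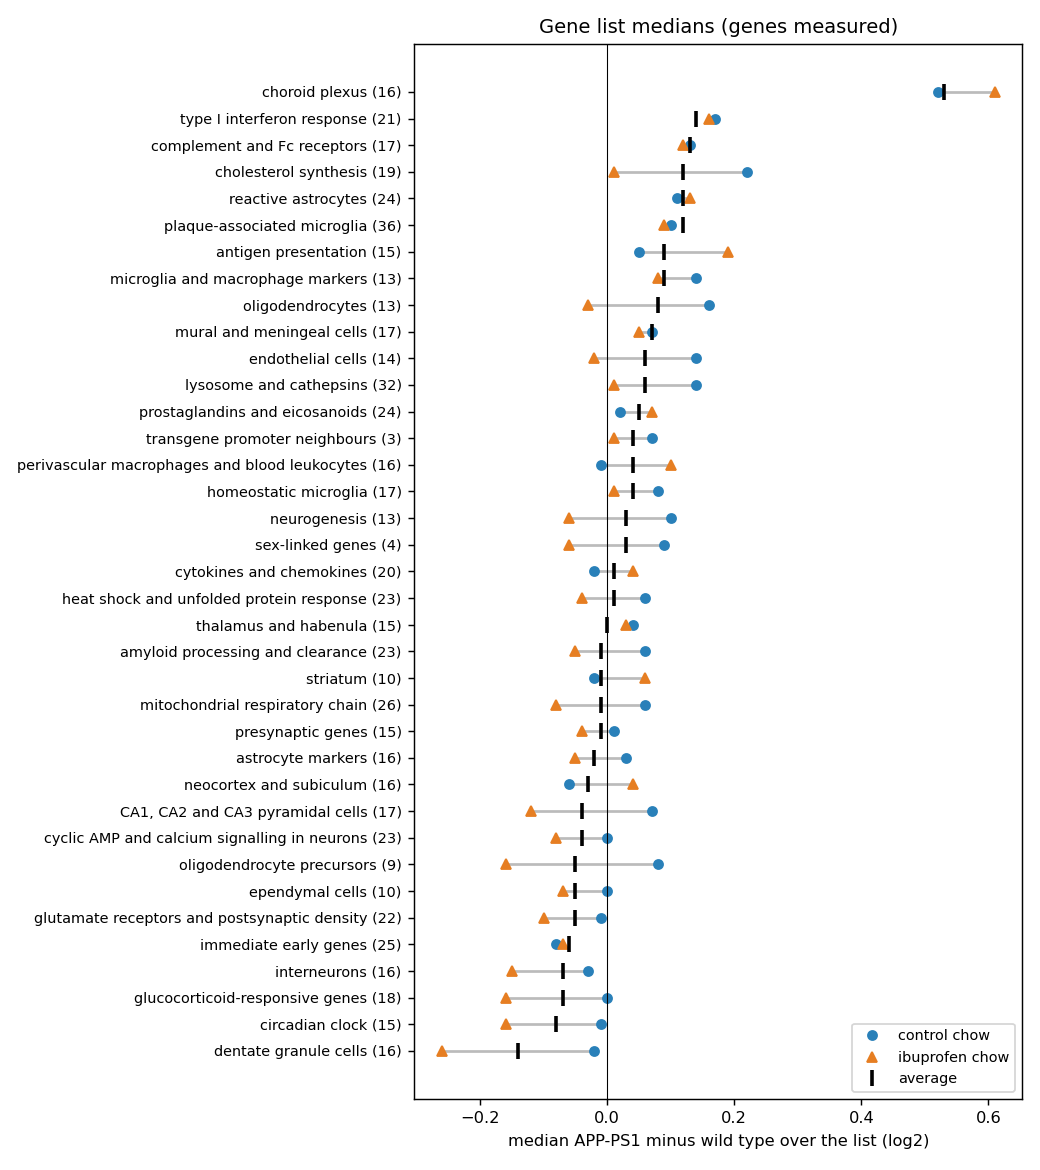
Median APP-PS1 minus wild-type difference in log2 expression (horizontal axis) for each of 37 gene lists (vertical axis, with the number of genes measured), with blue points for control chow, orange triangles for ibuprofen chow and black bars for the average. Choroid plexus lies farthest right at 0.53 and dentate granule cells farthest left at -0.14, and the diets differ most where the grey line is longest.

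The largest positive differences of the average included genes of choroid plexus. All 16 choroid plexus markers lay above 0, with a median of 0.53, but 1 had an unadjusted p under 0.05. Of all genes 2.34% lay above 0 at that threshold. The median was 0.34 without APP-PS1 control replicate 4 and 0.81 without wild-type ibuprofen replicate 5. Their mean per array was 9.22, 8.15, 7.69 and 7.81 in wild-type control and 7.88, 7.84, 7.97, 10.17 and 9.79 in APP-PS1 control mice. With ibuprofen in the chow it was 8.04, 7.82, 7.63, 7.83 and 10.12 in wild-type mice, and in APP-PS1 mice it was 9.87, 8.92 and 9.91 in 3 arrays and 8.04 or less in the other 2. Values of 8.92 or more occurred in 2 of 9 wild-type and 5 of 10 APP-PS1 arrays. Otx2, a transcription factor of choroid plexus, gave 0.80 ± 0.38 (SE), and Ttr, its main secreted protein, 0.95 ± 0.56 (SE). With the choroid marker mean as a covariate Otx2 gave 0.21 and Ttr 0.14. Both are part of that mean, so some shrinkage of their values was built in. Pon3, a paraoxonase, went from 0.53 to 0.21, Lgals3bp, a secreted lectin partner, from 0.51 to 0.26, and Cd59a, a complement inhibitor, from 0.50 to 0.27. Under the same covariate Cst7 gave 0.75 (adjusted p = 0.000132), Ccl3 0.67 (adjusted p = 0.0346) and Gfap 0.48.

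The within-diet differences share no array, though both come from 1 fit. At an unadjusted p under 0.05, control chow held 1170 genes (5.87%), 957 of them higher (4.8%) and 213 lower (1.07%). Ibuprofen chow held 4876 (24.5%), 1247 of them higher (6.25%) and 3629 lower (18.2%). The ibuprofen count was 3465 with quantile normalization, 1985 without the 3 arrays that stand apart and 354 with the dentate granule marker mean as a covariate. The median difference over all genes on that diet was -0.05, and 0.00 without the 3 arrays. Of the 58 genes past it with the same sign on both diets (0.291%), 31 were higher on both (0.155%), 27 were lower on both (0.135%), while 128 more had opposite signs (0.642%). Among the 31 higher genes, 11 stood in the lists of microglia, immune and astrocyte genes, which hold 210 of the 19938 genes. They were Cst7, Ccl3, Olfml3, Gfap, Clec7a, Ctsd, Ctsb, Aqp4, Cd68, C3ar1 and C4b. Among the 27 lower genes 0 stood in those lists, a count that so small a share of all genes would also give. The lists were chosen with results of these arrays known, so neither count is independent evidence. The lower ones included Arpp21, Adcy1, Shisa7, Sst and Syt7, a calcium sensor of vesicle release at -0.19, and Camk2n1, an inhibitor of CaM kinase II at -0.12. These counts depended on scaling and on single arrays. With quantile normalization 57 were higher, 101 lower and 71 opposite, with the microglia covariate 61, 283 and 53, and without the 3 arrays that stand apart 80, 40 and 53. The higher count was 18 without wild-type control replicate 3, 20 without APP-PS1 control replicate 1 and 58 without wild-type ibuprofen replicate 5. The lower count was 7 without wild-type control replicate 3, 15 without APP-PS1 control replicate 4 or APP-PS1 ibuprofen replicate 5, and 41 to 45 without APP-PS1 control replicate 1, APP-PS1 ibuprofen replicate 2, wild-type control replicate 4 or wild-type ibuprofen replicate 5. The opposite count was 32 without wild-type control replicate 3, 42 without APP-PS1 control replicate 1, 59 without wild-type control replicate 4, 81 and 84 without APP-PS1 ibuprofen replicates 4 and 3, and 270 without wild-type ibuprofen replicate 4.

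Over all genes the sign was the same on both diets in 36.1%. Across genes, which are not independent and share the arrays of each diet, Pearson's r of the differences was -0.16. It was 0.24 without the 3 arrays that stand apart and 0.30 with the microglia marker mean as a covariate, so its sign is not settled. Of the 466 higher genes, 183 passed the unadjusted threshold on control chow alone and 165 on ibuprofen chow alone. The median difference over all 466 was 0.15 on control and 0.14 on ibuprofen chow. Of the 1069 lower genes, 826 passed on ibuprofen chow alone and 68 on control chow alone. The median difference over all 1069 was -0.21 on ibuprofen and -0.07 on control chow. The interaction had an unadjusted p under 0.05 for 306 of the lower genes (28.6%) and 70 of the higher genes (15%), beside 20.5% of all genes.

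**Figure D5:**
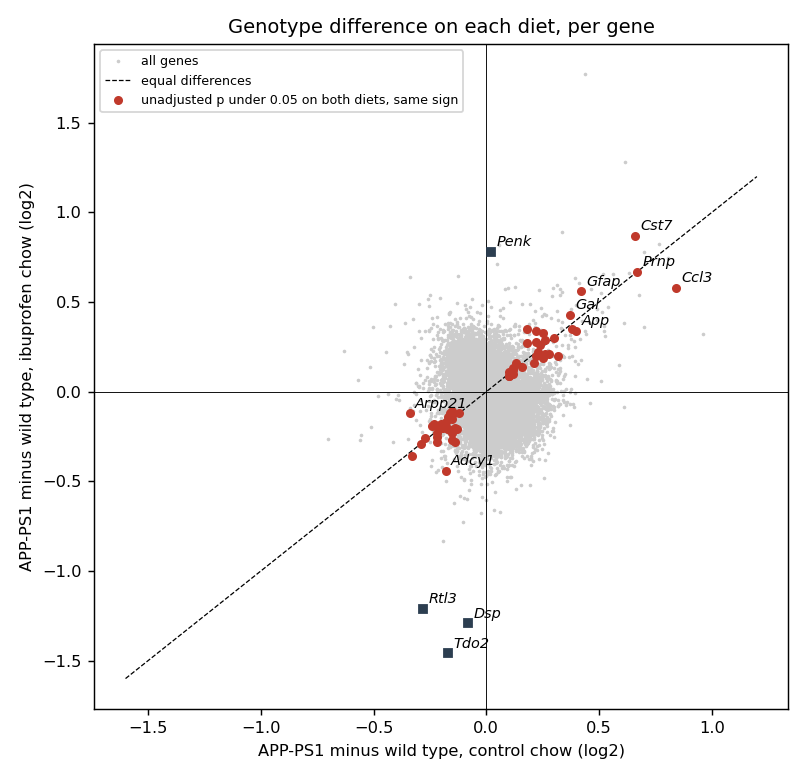
APP-PS1 minus wild-type difference of each gene on control chow (horizontal axis) and on ibuprofen chow (vertical axis), both in log2, with grey points for all genes, red points for the 58 genes past an unadjusted p of 0.05 on both diets with the same sign and the dashed line for equal differences. Prnp lies on the line at 0.67, and Dsp, Tdo2, Rtl3 and Penk lie farther from 0 on the ibuprofen axis than on the control axis.

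Control chow alone gave 2 called genes (0.01%), ibuprofen chow gave 54 (0.271%), 50 of them lower (0.251%), and the interaction gave 0, with 4087 at an unadjusted p under 0.05 (20.5%) in limma, 897 above 0 (4.5%) and 3190 below (16%). The ibuprofen split was 11 higher and 29 lower with quantile normalization, and 13 higher and 20 lower without the 3 arrays that stand apart. The genes of smallest interaction p were Iqgap2, a scaffold protein, at -0.36 ± 0.07 (SE), Cdh8, a cadherin of synapses, at -0.39 ± 0.07 (SE), Kctd4 at -0.47 ± 0.09 (SE), Cap2, which acts on actin, at -0.27 ± 0.05 (SE), and Plcl1 at -0.49 ± 0.10 (SE), each with adjusted p = 0.208. In these 5 the averages lay between -0.09 and -0.05, because a higher value on control chow met a lower one on ibuprofen chow. For Iqgap2 those were 0.10 and -0.26. The 5 called genes did not differ by diet at the adjusted threshold, and Prnp, with an interaction of -0.00 ± 0.05 (SE), had the smallest interaction of the 5.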

How the data were processed

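RNA from the hippocampus in 19 samples was measured on Affymetrix whole-transcript arrays. Per the submitters' processing notes, the deposited log2 values came from RMA, which corrects background, normalizes between arrays and summarises probes, with Partek 6.5 named there. Further settings are not given in the sources used here. Of 35556 probe sets, 21789 carried 1 gene symbol, 1621 several and 12146 none, and 21698 of the first matched RefSeq by the platform annotation. The brightest probe set by mean over all arrays stood for each of 19938 genes. limma 3.58.1 in R 4.3.3 fitted the 4 group means (lmFit, eBayes with an intensity trend, 15 residual degrees of freedom), and the contrast was the mean of the APP-PS1 minus wild-type differences on the 2 diets. P-values were adjusted by Benjamini-Hochberg over all genes, with a threshold of 0.05. The test was checked on simulated data. The number of arrays limits the precision, and no arrays were duplicates. Genes were named if called, if among the next 12 of smallest p in each direction, among the 8 of largest size in each direction with an unadjusted p under 0.05, up to 5 of smallest p per list, or the 5 of smallest interaction p, and 18 were always to be given. Predicted genes and olfactory, vomeronasal and taste receptors were counted and not named outside the lists. Gene lists and members were chosen with earlier results of these data known. Genes shown from the lists beyond that rule were chosen after their values were seen. Alternatives changed the normalization, filter, probe set rule, model, weights, block and covariates, or left out arrays. Promoters and microRNAs are RefSeq sequences on GRCm38.p6.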

Additional observations from a re-analysis of the deposited data

Results flagged for a closer look

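In groups of 4 or 5 arrays, single arrays lay far from the rest of their group, as chance alone would show in about 1 in 20 groups. Among named genes these were App at 13.16 in wild-type control replicate 4, the lowest of its group, and 4 highest values. The latter were Cst7 at 7.27 in wild-type ibuprofen replicate 4, Arpp21 at 11.13 in APP-PS1 control replicate 2, and Aqp4 at 11.53 and Serpina3n at 12.48 in APP-PS1 control replicate 1.

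Among list means, APP-PS1 control replicate 1 was highest of its group for cholesterol synthesis at 10.81, oligodendrocyte precursors at 9.79 and cyclic AMP and calcium signalling at 11.41. APP-PS1 control replicate 5 was highest for the interferon response at 9.19. Wild-type control replicate 2 was highest for plaque-associated microglia at 9.66, oligodendrocytes at 11.04 and endothelial cells at 9.63, and wild-type control replicate 3 for interneurons at 10.84. Wild-type ibuprofen replicate 5 was highest for choroid plexus at 10.12, dentate granule cells at 10.22, immediate early genes at 9.83, mural and meningeal cells at 9.82, and thalamus and habenula at 9.20. APP-PS1 ibuprofen replicate 5 was highest for astrocyte markers at 11.61, and APP-PS1 ibuprofen replicate 1 was lowest for sex-linked genes at 8.44.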

How the results depend on the processing

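Prnp, App and Cst7 kept their call under all 17 alternatives and all 19 omissions of 1 array. The 5 genes called in the average became 11 with quantile normalization, 8 with median centring, 3 with all probe sets adjusted together, 342 with array weights, 559 with the microglia covariate and 8 without the 3 arrays that stand apart. Omitting 1 array gave 3 to 52, the latter without APP-PS1 ibuprofen replicate 2. The 2 genes on control chow became 8 with array weights and 4 with the microglia covariate, and 2 to 4 with 1 array omitted. The 54 on ibuprofen chow became 128 without the dimmest genes, 34 with all probe sets, 91 with robust moderation, 1004 with array weights, 5696 with the microglia covariate, 2 with the dentate granule covariate, 33 without the 3 arrays and 5 with the compared groups alone. Omitting 1 array gave 10 to 1490. The interaction count of 0 became 174 with array weights and 0 to 13 with 1 array omitted. With the replicate block the counts were 6 in the average, 4 on control chow, 197 on ibuprofen chow and 0 for the interaction. Whether the replicate numbers pair the samples is not settled by these values. Within a diet, 3 of 9 same-numbered pairs had deviations correlated over 0.1 (range -0.27 to 0.57) and 1 correlated best with its own number. Pairs across diets were not examined. The Arpp21 call was lost with quantile normalization (adjusted p = 0.0951), median centring (0.176), the additive model (0.15) and without the 3 arrays (0.0723), among others. Ccl4 turned from -0.01 to 0.00 with median centring and the replicate block, 0.01 with the choroid covariate, 0.02 with the microglia covariate and, over the omissions of 1 array, ranged from -0.07 to 0.02. Apoe turned from -0.03 to 0.01 with array weights and without the 3 arrays and 0.05 with the dentate granule covariate, under which Lct turned to 0.02. Lct is itself part of that covariate. The causes were not tested. The counts per list and the agreement between diets under these alternatives were chosen after seeing the data.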
